A study of Mus musculus with 2 samples.

Results

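Mature migratory dendritic cells were described here as 171 of the 11245 mouse lung cells that passed the filters, and 142 of the 171 came from mice given lipopolysaccharide (LPS), the endotoxin of Gram-negative bacteria. They were selected on measured values: at least 500 detected genes, at most 20% of UMIs (unique molecular identifiers, 1 per captured RNA molecule) from mitochondrial genes, at least 1 UMI in 2 or more of Ccr7, Fscn1 and Ccl22, and less than 5% of gene UMIs from Sftpc, the surfactant gene of alveolar type 2 (AE2) epithelium. Single-cell RNA-seq (10x Chromium, 3' ends) had been run on C57BL/6JRj mice aged 18 months (old) or 3 months (young), taken 24 h after 2.5 mg LPS per kg (old LPS, young LPS) or after saline (old control, young control). Lungs were lavaged and digested with dispase, and live cells positive for EpCAM, a surface protein of epithelium that some dendritic cells also carry, were sorted. A separate hashtag antibody marked each of the 4 groups, equal cell numbers were loaded together on 1 lane, and a second, independent replica makes 2 lanes and 8 libraries. All 8 libraries passed through the same digestion and sort, so what is described is the EpCAM-positive fraction left after lavage, and the number of mice behind each library is not given in the sources used here.

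Dendritic cells take up antigen in tissues such as the lung and carry it to the draining lymph node. On maturation they switch on Ccr7, the receptor that leads them along Ccl19 and Ccl21 gradients into lymphatics, and Fscn1, the actin-bundling protein behind their long dendrites. They also switch on Ccl22, a chemokine that draws T cells carrying Ccr4. Mature cells present peptides on MHC class II to CD4+ T cells and on class I to CD8+ T cells, with costimulatory ligands such as Cd80 and Cd86 as a further signal. Type I and type II interferons, both released after LPS, switch on interferon-stimulated genes.

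The libraries held between 6228266 and 15435789 UMIs in all. The migratory dendritic cells contributed 22733 to 264708 UMIs per library, with 25 to 51 such cells in each LPS library and 5 to 10 in each control library, so 1 UMI was worth as much as 44.0 CPM (UMIs scaled to a common library total) in the smallest control library. Their median depth was 5317 UMIs per cell after LPS and 5303 in controls. Sftpc took a median 0.117% of their UMIs, and the estimated share of free RNA in their summed profiles was 0.361% to 2.10%. No cell barcode was shared between libraries of the same lane, 2 barcode strings occurred in libraries of different lanes, and none of these belonged to a migratory dendritic cell. One cell of old LPS library 2, with 21663 UMIs and 44 UMIs of the selecting genes, held 88.7% of that library's Sftpa1 UMIs, 95.1% of its Lcn2 UMIs and 72.5% of its Lyz2 UMIs among these cells. Its UMIs thus include epithelial and dendritic transcripts.

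The label held against the markers that had not been used for selection. Cacnb3, a calcium channel subunit of mature dendritic cells, was detected in 85.4% of the migratory cells. Il4i1, an amino acid oxidase, was detected in 89.5%, Relb, the subunit of non-canonical NF-kappaB, in 93.6%, and Cd83, a maturation marker, in 85.4%. Among the 283 cells of the nearest dendritic set, the conventional type 1 (cDC1) cells defined by 2 or more of Xcr1, Clec9a and Wdfy4, these 4 genes were detected in 0.353%, 7.42%, 8.48% and 23.3%. Nudt17 and Zmynd15 were detected in 64.9% and 62.0% of migratory cells, against 0.617% and 1.42% of AE2 cells. Socs2, detected in 76.0% of migratory cells, was also detected in 86.0% of AE2 cells and so does not separate these. The selecting genes themselves had a background near 0 in AE2 cells, of median depth 6646 UMIs: 0.223% for Ccr7, 0.137% for Fscn1 and 0.154% for Ccl22.

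Markers of other cells were counted in the same sums. Xcr1 or Clec9a was detected in 16 of 171 migratory cells, Mgl2 or Cd209a in 6, a Cd3 chain in 2 and Cd79a or Cd79b in 3. None of the 5 mast cell and basophil markers had a UMI, and Cd3d, Lat, Lck, Cd79a, Pax5, Csf3r, Cxcr2 and C1qa were also at 0. Ciliated markers summed to 328.7 CPM and natural killer markers to 154.9 CPM in old LPS library 1, while both classes were at 0 in every control library. Summed AE2 markers ranged from 1608 to 9035 CPM in the LPS libraries and from 1994 to 3331 CPM in the control libraries, and the highest value was that of old LPS library 2, with the mixed cell included. Club cell markers, chiefly Scgb1a1, summed to 628 to 4568 CPM in LPS libraries and 1110 to 2240 CPM in control libraries, again highest in old LPS library 2. Alveolar macrophage markers summed to 186 to 1130 CPM in LPS libraries and 0 to 483 CPM in control libraries, with Ear1, Siglecf and Mrc1 at 0. Plasmacytoid markers summed to 300.2 to 580.3 CPM and 176 to 374 CPM, with Siglech, Ccr9 and Cox6a2 at 0. Whether these transcripts bear on any result below was not tested, except where a value without them is given.

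The cells did not carry one lineage factor throughout. Irf8, which cDC1 cells need, was detected in 32.2% of migratory cells and 98.2% of cDC1 cells. Irf4, typical of type 2 dendritic cells, was detected in 15.8% and 1.77%. Both factors were seen in 10 migratory cells, Irf8 alone in 45, Irf4 alone in 17 and neither in 99. Irf8 had a UMI in 28.9% of migratory cells from LPS libraries and 48.3% of those from control libraries.

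Cells just inside and just outside the rule were compared. All 3 selecting genes were present in 146 cells and exactly 2 in 25. Another 88 cells with low Sftpc had only 1 of them, mostly Ccl22 (53 cells) or Ccr7 (30 cells), and 2 cells with 2 or more exceeded the Sftpc limit. The median summed UMIs of the 3 genes were 38 in cells with all 3, 26 in cells with 2 and 1 in cells with 1. These medians follow in part from the rule, and nothing is read from them. Of the 7 other markers fixed for these cells, which the rule did not use, the medians were 6, 5 and 1.5 detected.

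Ccr7 levels in the summed profiles were 3131 and 3096 CPM in old LPS, 3331 and 2885 CPM in young LPS, 1536 and 3017 CPM in old control and 2583 and 1912 CPM in young control libraries (CPM scaled by the trimmed mean of M values, as in all levels below). Fscn1 stood at 2628 to 3256 CPM in LPS libraries and 1378 to 3216 CPM in control libraries. Ccl22 stood at 2202 to 3668 CPM in LPS libraries and 2478 to 7921 CPM in control libraries. All 3 ranges overlap, and no test was run on them because they selected the cells. Promoter sequence was at hand for Ccl22 and Fscn1 and is shown because both selected the cells. The windows run from 250 bases before to 50 after the annotated start (RefSeq, GRCm38.p6). The Ccl22 window, chr8:94745434-94745733 on the plus strand, held 1 match to the kappaB letters GGGA, any 4 bases, CC, shown in capitals, starting 131 bases before the start and read on the minus strand:
Ccl22: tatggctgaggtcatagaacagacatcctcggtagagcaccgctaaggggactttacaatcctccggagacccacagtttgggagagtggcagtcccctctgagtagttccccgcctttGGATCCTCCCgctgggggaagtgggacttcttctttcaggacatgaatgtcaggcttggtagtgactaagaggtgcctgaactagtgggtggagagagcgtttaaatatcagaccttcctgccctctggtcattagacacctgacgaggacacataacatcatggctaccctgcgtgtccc
These letters occur on either strand in 20.7% of all 32851 promoter windows of that length, so the match is a description. No match to them lay in the Fscn1 window (chr5:142960105-142960404, plus strand), which says only that the letters are not in these 300 bases.

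Migratory dendritic cells made up a larger share of the sorted cells after LPS. They were 2.93% and 1.52% of filtered cells in old LPS libraries and 3.16% and 2.25% in young LPS libraries, against 0.677% and 0.326% in old control and 0.493% and 0.651% in young control libraries. Every LPS library lay above every control library. The means were 2.46% ± 0.743 and 0.537% ± 0.162 (SD, n = 4 each), and the difference of 1.93 points gave p = 0.0286 in a two-sided exact permutation test, the smallest p that the 70 splits allow. With lane as a replicate block, permuting within lane gave an exact p of 0.0556, the smallest that design allows. Within lane and age, the LPS to control ratio was 4.33 and 4.64 in old mice and 6.42 and 3.45 in young mice. The share depends on what else was sorted: of cells with low Sftpc only, migratory cells were 3.46% ± 0.738 after LPS and 2.35% ± 1.15 in controls, the ranges overlapped (2.41% to 4.03% and 1.18% to 3.90%), and p was 0.171 in the same exact test. The sort for EpCAM can set these shares: Epcam RNA was detected in 8.45% of migratory cells from LPS libraries and 31.0% of those from control libraries, at equal median depth, and its part in the share was not tested.

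Among dendritic cells the shift was larger. Each library held 3 dendritic sets: migratory cells, cDC1 cells and cells with Mgl2 or Cd209a, C-type lectins of type 2 dendritic cells and related myeloid cells. Migratory cells were 82.3% and 61.0% of the 3 sets in old LPS and 73.1% and 66.7% in young LPS libraries, against 6.62% and 11.9% in old control and 5.95% and 7.50% in young control libraries. The means were 70.7% ± 9.13 and 7.99% ± 2.68 (SD, n = 4 each; exact permutation p = 0.0286). The cDC1 set was 0.826% ± 0.273 of filtered cells after LPS and 4.33% ± 2.44 in controls, and the Mgl2 or Cd209a set 0.146% ± 0.145 and 2.62% ± 1.75, each with an exact permutation p of 0.0286 across n = 4 libraries a group. Whether more migratory cells were present or fewer other cells reached the sort cannot be told apart from shares.

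**Figure D1:**
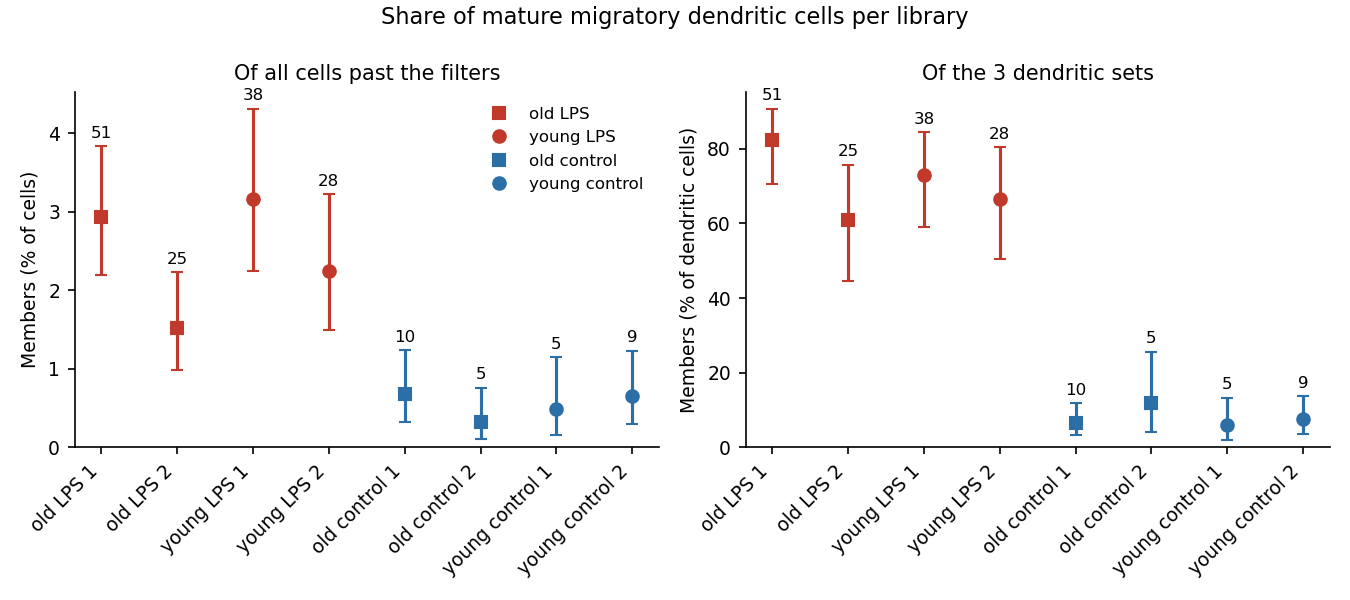
Share of migratory dendritic cells in each library, of all filtered cells (left) and of the 3 dendritic sets (right), in percent, with 95% exact Clopper-Pearson intervals that cover counting error only and the number of cells above each point. The 4 LPS libraries sit between 1.52% and 3.16% on the left and between 61.0% and 82.3% on the right, above all 4 control libraries on both axes.

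Across genes, LPS against control was tested on UMIs summed over the migratory cells of each library, with edgeR's quasi-likelihood test and age as a second term. Of 1419 genes tested, 87 passed an adjusted p of 0.05 (6.13%), 40 higher (2.82%) and 47 lower (3.31%) after LPS. The groups did not overlap for 77 of these 87 and for 14.7% of all genes tested. In 86 of the 87, the sign was the same in all 4 pairs of libraries of the same lane and age. The calls rest on these same libraries and the count was not made over all genes tested, so nothing is read from it. Depth favours the LPS libraries, whose summed profiles hold more cells, and the median log2 fold change over all genes tested was 0.06. Of the 42 called genes that the naming rules picked, 16 kept their call whichever library was left out, in every such fit in which the gene was tested. The count of calls was 22 without young LPS 1, 24 without old LPS 1, 54 without old LPS 2 and 49 without young control 2, and the fits without 1 LPS library tested 856 to 879 genes.

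**Figure D2:**
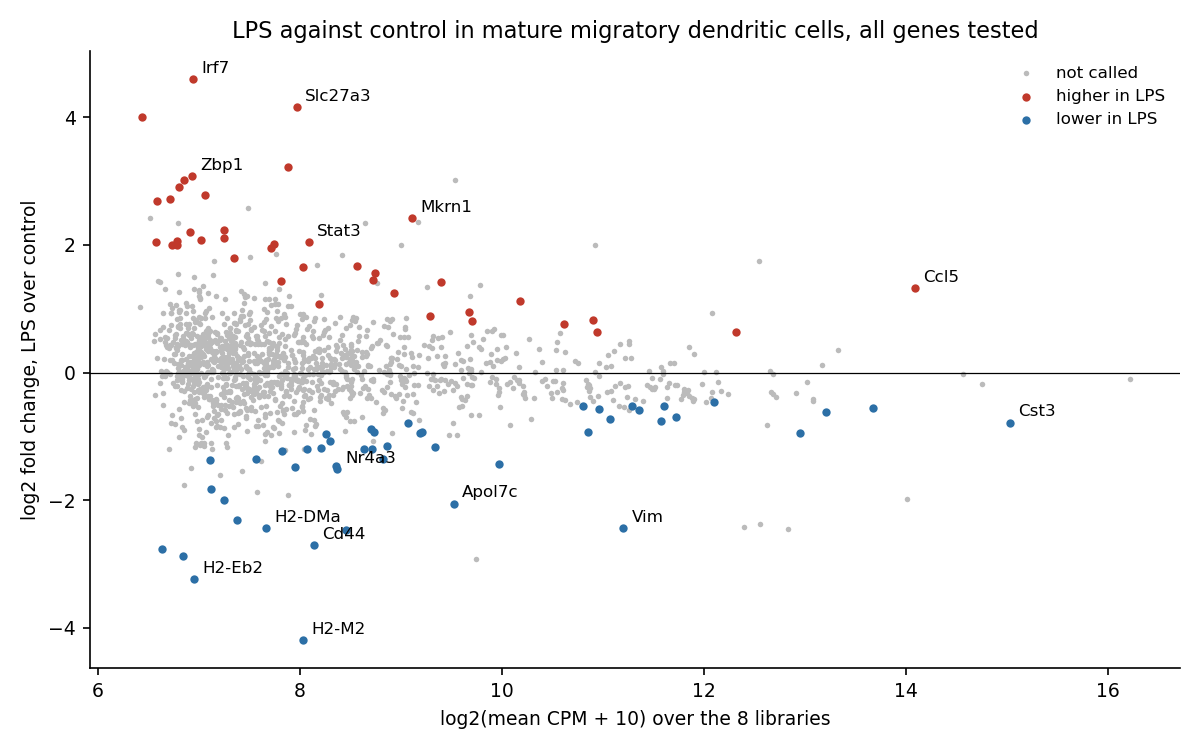
Every gene tested for LPS against control in migratory dendritic cells, with the log2 of its mean level (CPM + 10, over 8 libraries) on the horizontal axis and its log2 fold change, LPS over control, on the vertical axis. Red points are the 40 genes called higher after LPS and blue points the 47 called lower; Irf7, Slc27a3 and Mkrn1 lie on the upper side and H2-M2, H2-Eb2 and Vim on the lower side.

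Interferon-stimulated genes were higher after LPS where called. Of 11 members tested, from 42 of the list found in the data, 4 were called higher and none lower. Over all genes tested, 2.82% were called higher. The median log2 fold change was 1.65, against 0.06 over all genes tested. The count filter can admit a gene on its LPS libraries alone, so nothing is read from that median. Irf7, the factor that amplifies interferon production, had 215 and 138 CPM in old LPS and 227 and 306 CPM in young LPS libraries, against 19.7 and 0 CPM in old control libraries and 0 CPM in both young control libraries. No library of one treatment reached the range of the other, and the log2 fold change was 4.60 ± 0.74 (SE, adjusted p = 0.0012). Only 1 control UMI stands against 150 LPS UMIs, so the size is loose: the ratio of pooled CPM was 30.4, with a 95% counting interval of 5.37 to 1208. Irf7 had a UMI in 40.1% of migratory cells from LPS libraries and 3.45% of those from control libraries, against 6.33% of AE2 cells. In the AE2 cells of the same libraries its level was 37.9 CPM after LPS and 2.64 CPM in controls, and subtracting the estimated free RNA changed no call of a named gene in the LPS comparison.

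Zbp1, a sensor of Z-form nucleic acids, had 180 and 131 CPM in old LPS and 274 and 256 CPM in young LPS libraries, against 59.1 CPM in old control library 1 and 0 CPM in the other 3 control libraries. Its log2 fold change was 3.07 ± 0.64 (adjusted p = 0.0090), from 142 UMIs after LPS and 3 in controls. Gbp5, a guanylate-binding GTPase of host defence, had 144 and 138 CPM in old LPS and 227 and 114 CPM in young LPS libraries, against 39.4 and 0 CPM in old control and 0 and 26.9 CPM in young control libraries. These 2 genes separated the treatments without overlap, and for Gbp5 the log2 fold change was 2.68 ± 0.65 (adjusted p = 0.020). The calls rest on few control UMIs: without young control library 2, edgeR's adjusted p was 0.058 for Zbp1 and 0.074 for Gbp5.

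The Gbp5 promoter window is shown because it held a match to each motif searched, in capitals. It covers chr3:142496684-142496983 (plus strand, RefSeq, GRCm38.p6), again from 250 bases before to 50 after the start:
Gbp5: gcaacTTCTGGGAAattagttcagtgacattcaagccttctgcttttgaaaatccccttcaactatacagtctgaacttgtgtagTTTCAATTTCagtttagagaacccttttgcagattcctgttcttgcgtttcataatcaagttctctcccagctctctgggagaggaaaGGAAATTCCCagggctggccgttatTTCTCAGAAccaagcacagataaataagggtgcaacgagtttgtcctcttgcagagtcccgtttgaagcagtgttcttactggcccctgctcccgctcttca
The stretches TTCTGGGAA 245 bases and TTCTCAGAA 52 bases before the start match the gamma-activated site TTCNNNGAA, which reads the same on both strands and occurs in 8.30% of the 32851 windows. TTTCAATTTC, 165 bases before the start, is the interferon-stimulated response element core (GAAA, any 2 bases, GAAA) on the minus strand, which occurs on either strand in 3.44% of windows. GGAAATTCCC, 77 bases before the start, is a kappaB match on the minus strand, and no matches overlap each other. For Irf7 (chr7:141266375-141266674, minus strand) the window held no match to the 3 motifs, which says nothing of the factors that act there. Zbp1 and Ccr7 were named for the same search.

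Isg15, a ubiquitin-like protein, had the widest spread among controls, with 413 CPM in old control library 1 and 0 to 47.1 CPM in the other 3, against 640 to 1674 CPM in LPS libraries. At a log2 fold change of 3.01 ± 0.84 it was not called (adjusted p = 0.11). Most of the list was too low to test. Most of its untested members had a higher mean level after LPS than in controls. Among these were Xaf1 at 150 CPM after LPS and 28.4 CPM in controls, Ifi205 at 134 and 35.2 CPM, and Ly6a at 128 and 4.92 CPM. Mx1 was level, at 73.9 and 73.4 CPM. Only Usp18, at 70.6 and 138 CPM, Ifih1 and Ifi44 had a lower mean after LPS. Many of these means rest on few control UMIs, and the differences were not tested. Cxcl9, of the chemokine list, is induced by interferon-gamma and attracts Cxcr3+ T cells. It did not pass the count filter either, so not every LPS library was high enough. Cxcl9 had 249 UMIs in LPS libraries and 2 in control libraries. Pooled, that is a ratio of 25.2 with a counting interval of 6.91 to 209. Per cell, the genes of the list together took a median 0.395% of UMIs after LPS and 0.136% in controls.

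MHC class II genes were lower after LPS where called, 2 of the 7 tested, against a background of 3.31% of all genes called lower. All 7 had a negative log2 fold change, with a median of -2.41, and single cells held low and high levels side by side. H2-Eb2, a beta chain gene beside H2-Eb1, had 17.5 and 7.27 CPM in old LPS and 17.5 and 49.9 CPM in young LPS libraries, against 197 and 141 CPM in old control and 158 and 323 CPM in young control libraries. The ranges did not touch, and the log2 fold change was -3.24 ± 0.52 (adjusted p = 0.0012). H2-DMa, a chain of the chaperone that exchanges peptides on class II, had 17.5 to 135 CPM in LPS libraries and 105 to 551 CPM in control libraries. Here young control library 1 fell within the LPS range, at a log2 fold change of -2.43 ± 0.60 (adjusted p = 0.044), and the call was lost without old LPS 1, young LPS 1, old control 1, old control 2 or young control 2, one at a time, with edgeR's adjusted p from 0.0504 to 0.18.

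The genes of the main class II chains had large differences that missed the threshold. H2-Aa had 1546 and 2028 CPM in old LPS and 716 and 3312 CPM in young LPS libraries, against 11242 and 14380 CPM in old control and 6010 and 8806 CPM in young control libraries. Every LPS library lay below every control library, and the log2 fold change was -2.37 ± 0.55 (adjusted p = 0.073, not called). H2-Ab1, H2-Eb1 and Cd74, the invariant chain that guides class II to endosomes, also did not overlap, with log2 fold changes of -2.41 ± 0.77, -2.45 ± 0.63 and -1.98 ± 0.44 and adjusted p of 0.15, 0.094 and 0.065. Young LPS library 2 was the highest LPS library for all 4. AE2 cells, a class II positive epithelium, had 966 CPM of H2-Aa after LPS and 880 CPM in controls. Ciita, the transactivator of class II genes, was too low to test, with 0 to 42.7 CPM in LPS libraries and 0 to 256 CPM in control libraries.

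Single cells showed the spread within libraries. The 4 genes together took a median 0.345% and 0.301% of a cell's UMIs in old LPS and 0.232% and 0.614% in young LPS libraries, against 5.06% and 4.94% in old control and 2.43% and 4.82% in young control libraries. Cells spanned low and high values in both treatments, and whether they form separate groups was not tested. Under a limit of 1%, chosen after the values were seen, fell 111 of 142 cells from LPS libraries (78.2%) and 7 of 29 from control libraries (24.1%). By library these were 80.4% and 76.0% in old LPS and 92.1% and 57.1% in young LPS, against 10% and 20% in old control and 40% and 33.3% in young control. Low cells were thus found in every library, and high cells too. In the cDC1 set, 1 of 46 cells from LPS libraries and 0 of 237 from control libraries lay under 1%, which allows up to 1.27% of control cells there, and the set's medians were 4.06% and 5.35%.

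**Figure D3:**
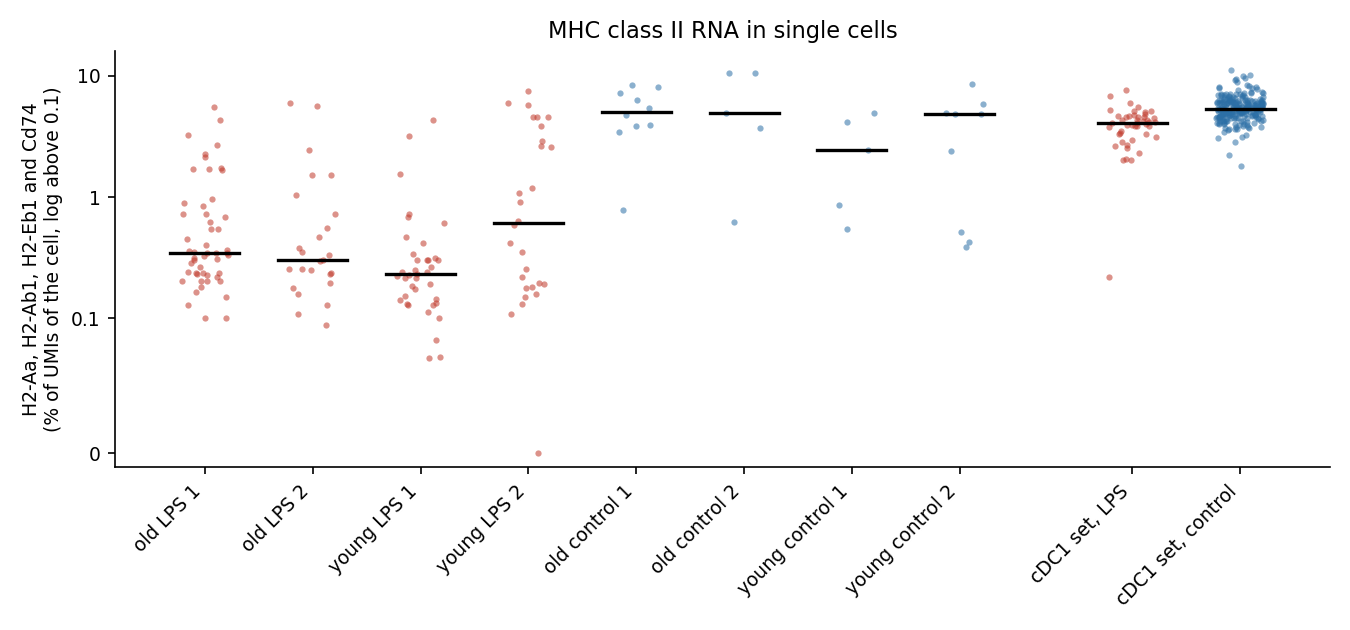
Percent of each cell's UMIs in H2-Aa, H2-Ab1, H2-Eb1 and Cd74, on an axis that is logarithmic above 0.1%, with 1 point per cell and a bar at the median. Migratory cells of the 4 LPS libraries crowd under 1% with medians from 0.232% to 0.614%, those of the 4 control libraries have medians from 2.43% to 5.06%, and cDC1 cells of both treatments (right) lie almost wholly above 1%.

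Class I genes had mostly positive differences. Of 17 tested, 16 had a positive log2 fold change, the median was 0.41 and 2 were called higher, against 2.82% of all genes called higher and a median of 0.06. Psmb9, an immunoproteasome subunit that trims peptides for class I, had 941 and 1163 CPM in old LPS and 1118 and 1047 CPM in young LPS libraries, against 551 and 519 CPM in old control and 633 and 512 CPM in young control libraries. There was no overlap, and the log2 fold change was 0.95 ± 0.20 (adjusted p = 0.0090). H2-T22, a non-classical class I gene, had 185 to 309 CPM in LPS libraries and 0 to 80.8 CPM in control libraries, a log2 fold change of 2.10 ± 0.48 (adjusted p = 0.014); reads of near-identical class I genes may be split between copies, so single H2 genes are uncertain. The classical genes H2-K1 and H2-D1 were not called, at log2 fold changes of 0.40 ± 0.15 and 0.02 ± 0.14. H2-M2, a non-classical class I gene outside the list, went against the list. It had 8.76 and 36.3 CPM in old LPS and 23.3 and 21.4 CPM in young LPS libraries, against 197 and 141 CPM in old control and 1265 and 323 CPM in young control libraries. Its log2 fold change was -4.19 ± 0.57 (adjusted p = 0.00068), and cDC1 sums held no UMI of it.

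Among chemokines and cytokines, Ccl5 was higher and Il12b lower after LPS, and the other 4 tested of 6 were not called. The list holds 23 genes, and over all genes tested 2.82% were called higher and 3.31% lower. Ccl5, which recruits T cells, had 23377 and 19413 CPM in old LPS and 34774 and 22267 CPM in young LPS libraries, against 13841 and 8204 CPM in old control and 9015 and 8429 CPM in young control libraries. With no overlap, the log2 fold change was 1.33 ± 0.23 (adjusted p = 0.0091), and without young control library 1 edgeR's adjusted p was 0.084. Cells with a Ccl5 UMI were 92.3% of migratory cells from LPS libraries and 62.1% of those from control libraries, against 4.24% of cDC1 cells and 1.37% of AE2 cells. The median cell gave it 1.25% of its UMIs after LPS and 0.148% in controls, and the highest cell 9.81%. Il12b, the p40 chain shared by interleukins 12 and 23, had 52.5 and 124 CPM in old LPS and 379 and 541 CPM in young LPS libraries, against 276 and 471 CPM in old control and 633 and 808 CPM in young control libraries. Treatments overlapped over all libraries but not within an age, and the log2 fold change was -1.19 ± 0.34 (adjusted p = 0.046). That call is weak: it was lost when old LPS 1, old LPS 2, young LPS 1, old control 1, old control 2 or young control 2 was left out, with edgeR's adjusted p from 0.063 to 0.13.

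Ccl17, which shares the receptor Ccr4 with Ccl22, had 6108 and 4913 CPM in old LPS and 2155 and 5236 CPM in young LPS libraries, against 7049 and 10042 CPM in old control and 8013 and 6867 CPM in young control libraries. It was not called (log2 fold change -0.81 ± 0.27, adjusted p = 0.12) although the ranges did not overlap. Cxcl2, a chemokine for neutrophils, had 76 UMIs after LPS and 0 in controls, so it was at least 5.13-fold higher against a floor of 3 UMIs over the pooled controls, but AE2 cells of LPS libraries held 415 CPM of it and migratory cells 49.9 to 218 CPM. Ccl19 had no UMI in any cell, and its near-identical gene copies make that count uncertain.

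Ligands and receptors of T cell costimulation were higher where called. Of 9 tested, 2 were called higher and none lower, with a median of 0.62, against 2.82% of all genes called higher and a median of 0.06. Cd86, a ligand of CD28, had 779 and 676 CPM in old LPS and 512 and 492 CPM in young LPS libraries, against 512 and 236 CPM in old control and 52.7 and 53.9 CPM in young control libraries. Old control library 1 reached the LPS range, and the log2 fold change was 1.46 ± 0.36 (adjusted p = 0.023). Tnfrsf9 (4-1BB), a receptor of the TNF family, had 435 to 683 CPM in LPS libraries and 52.7 to 330 CPM in control libraries, with a log2 fold change of 1.66 ± 0.43 (adjusted p = 0.034). Both calls were lost in 4 of the 8 fits that left out 1 library, with edgeR's adjusted p from 0.055 to 0.11 for Cd86 (without old LPS 1, young LPS 1, old control 2 or young control 2) and from 0.055 to 0.13 for Tnfrsf9 (without old LPS 1, young LPS 1, old control 1 or young control 1). Cd274 (PD-L1), the ligand of the inhibitory receptor PD-1, stood just outside the threshold at 1.75 ± 0.51 (adjusted p = 0.0502). Cd80, the other CD28 ligand, did not pass the count filter and was not tested. The filter can pass a gene on its LPS libraries alone, so not every LPS library was high enough. Cd80 had 159 UMIs after LPS and 3 in controls, a pooled ratio of 10.7 with a counting interval of 3.61 to 52.6. Other untested members of the list went both ways. Icosl had mean levels of 55.7 CPM after LPS and 135 CPM in controls, Pvr 38.8 and 98.0 CPM, and Tnfsf9 41.4 and 11.8 CPM. Cd40, the receptor for T cell help, and Cd83 were not called, at 0.62 ± 0.35 and -0.66 ± 0.21.

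Of 15 immunoregulatory genes listed, 4 were tested and 1 was called in each direction. Over all genes tested, 2.82% were called higher and 3.31% lower, so nothing is read from this count. Aldh1a2, the enzyme that makes retinoic acid in dendritic cells, had 289 and 189 CPM in old LPS and 384 and 456 CPM in young LPS libraries, against 98.4 and 141 CPM in old control and 52.7 and 26.9 CPM in young control libraries. No overlap was seen, and the log2 fold change was 2.01 ± 0.45 (adjusted p = 0.012; edgeR gave 0.0504 to 0.078 without old LPS 1, young LPS 1 or young control 2). Nr4a3, a nuclear receptor induced by receptor signalling, had 134 to 184 CPM in LPS libraries and 211 to 1084 CPM in control libraries, a log2 fold change of -1.52 ± 0.36 (adjusted p = 0.018). Its call was lost without old LPS 1, old LPS 2, young LPS 1, old control 2 or young control 2, with edgeR's adjusted p from 0.054 to 0.12.

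Of 8 genes tested from the list of dendritic cell transcription factors, 2 were called higher, both of the STAT family. Over all genes tested, 2.82% were called higher. The untested members of this list went both ways. Nfil3 had 52 UMIs after LPS and 1 in controls, and Bcl6 had mean levels of 32.6 CPM after LPS and 97.9 CPM in controls. Stat3, which transmits interleukin 6 and interleukin 10 signals, had 517 and 356 CPM in old LPS and 431 and 370 CPM in young LPS libraries, against 118 and 94.3 CPM in old control and 158 and 53.9 CPM in young control libraries. The treatments stood apart, and its log2 fold change was 2.05 ± 0.35 (adjusted p = 0.0019). Stat4, which transmits interleukin 12 signals, had 142 to 285 CPM in LPS libraries and 0 to 158 CPM in control libraries, at 2.24 ± 0.57 (adjusted p = 0.028; edgeR gave 0.056 to 0.13 without old control 1, old control 2 or young control 2). Irf8, Batf3, Id2, Spi1, Relb and Stat5a, the other 6 tested of this list, were not called.

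Of 24 listed genes of NF-kappaB signalling, which drives dendritic cell maturation, and of survival, 16 were tested for LPS. Of these, 0 passed the adjusted p of edgeR, with log2 fold changes from -0.75 to 0.54. The untested members went both ways. Bcl2l11 had 55 UMIs after LPS and 0 in controls, at least 3.72-fold higher against a floor of 3 UMIs. Traf2 had 41 and 2 UMIs, a pooled ratio of 4.15 with a counting interval of 1.08 to 35.5. Rela had mean levels of 79.5 CPM after LPS and 128 CPM in controls. Relb had 541 to 775 CPM in LPS libraries and 591 to 1023 CPM in control libraries. Traf1, a signalling adaptor of TNF receptors, had 952 to 1178 CPM in LPS libraries and 669 to 1179 CPM in control libraries. Of 29 tested genes of the maturation programme, 3 were called higher (Stat4, Aldh1a2 and Cd86) and 2 lower, where 6.13% of all genes tested were called, and the median was 0.09. The lower ones were Apol7c, an apolipoprotein L family gene with 158 to 335 CPM in LPS libraries and 283 to 2154 CPM in control libraries (-2.05 ± 0.31, adjusted p = 0.0011), and Basp1, a membrane-bound actin regulator with 1363 to 1900 CPM and 2109 to 3159 CPM (-0.73 ± 0.16, adjusted p = 0.012). Fabp5, a fatty acid binding protein, had 6926 to 10228 CPM in LPS libraries and 1371 to 5139 CPM in control libraries without overlap, and was not called (1.75 ± 0.44, adjusted p = 0.080).

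Genes of adhesion and the cytoskeleton were lower where called, 4 of 17 tested, with none higher and a median of -0.25, against 3.31% of all genes called lower and a median of 0.06. Vim, the intermediate filament vimentin, had 937 and 1097 CPM in old LPS and 437 and 534 CPM in young LPS libraries, against 3426 and 5422 CPM in old control and 4850 and 2074 CPM in young control libraries. The groups were far apart, with a log2 fold change of -2.43 ± 0.29 (adjusted p = 0.0012), and Vim took a median 0.0333% of a cell's UMIs after LPS and 0.230% in controls. Cd44, the hyaluronan receptor, had 52.5 and 79.9 CPM in old LPS and 52.4 and 107 CPM in young LPS libraries, against 354 and 754 CPM in old control and 211 and 566 CPM in young control libraries (-2.71 ± 0.38, adjusted p = 0.00064). Msn, which ties actin to the membrane, had 249 to 349 CPM in LPS libraries and 566 to 685 CPM in control libraries (-1.15 ± 0.23, adjusted p = 0.0073). Adam8, a membrane metalloprotease, had 99.0 to 158 CPM and 236 to 474 CPM (-1.48 ± 0.31, adjusted p = 0.0090; edgeR gave 0.052 without young LPS 1). None of these 4 overlapped between treatments. The actin-binding Tmsb4x and Tmsb10 were not called, at -0.10 ± 0.11 and -0.25 ± 0.21. Outside the list, the scaffold gene Ahnak had 34.9 to 138 CPM in LPS libraries and 256 to 1273 CPM in control libraries (-2.46 ± 0.48, adjusted p = 0.012; edgeR gave 0.081 without old LPS 1).

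**Figure D4:**
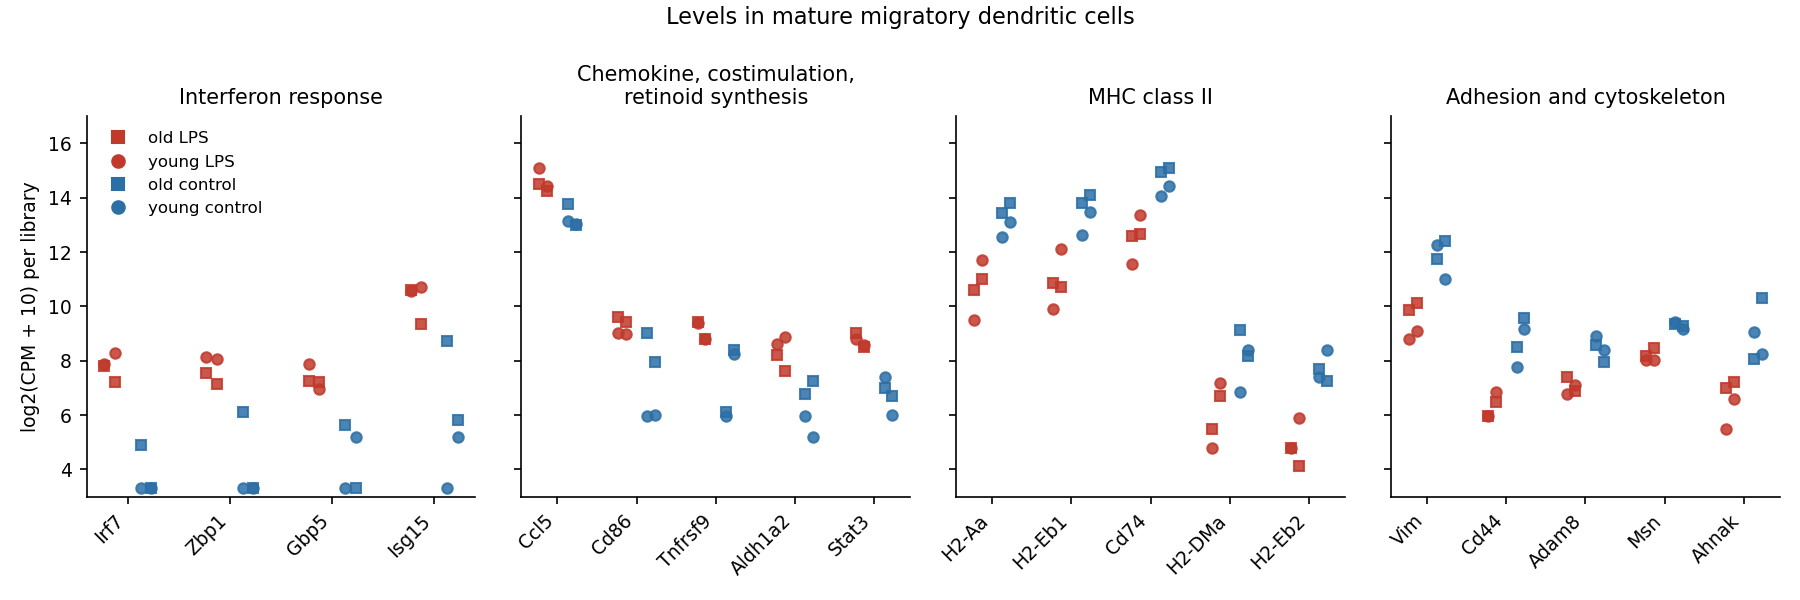
Level of 19 genes in the migratory dendritic cells of each library, as log2(CPM + 10), with LPS libraries in red left of control libraries in blue and squares for old, circles for young mice. Interferon, chemokine and costimulation genes lie higher in red, class II and adhesion genes higher in blue, and Cd86 and H2-DMa are the genes shown in which the colours overlap.

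The most changed genes also included some outside the fixed lists. Slc27a3, of the fatty acid transport and acyl-CoA synthetase family, had 508 and 320 CPM in old LPS and 483 and 470 CPM in young LPS libraries, against 0 and 94.3 CPM in old control and 52.7 and 0 CPM in young control libraries. Its log2 fold change was 4.16 ± 0.58 (adjusted p = 0.00064), and the pooled counts of 309 and 3 UMIs gave a ratio of 20.9 with a counting interval of 7.08 to 102. Mkrn1, a ubiquitin ligase, had 618 to 1095 CPM in LPS libraries and 47.1 to 215 CPM in control libraries (2.42 ± 0.30, adjusted p = 0.00031). Mt2, a metal-binding metallothionein, had 247 to 658 CPM and 0 to 158 CPM (3.22 ± 0.53, adjusted p = 0.0015). Plscr1, an interferon-inducible membrane protein, had 145 to 291 CPM and 0 to 47.1 CPM (2.78 ± 0.56, adjusted p = 0.0077). All 4 separated the treatments completely. Acadm, an enzyme of fatty acid oxidation, the nucleoporin Nup88 and the mitochondrial protein C1qbp completed the higher side at log2 fold changes of 2.08, 2.72 and 2.21, and each was lost in 1 or more fits without 1 control library, with edgeR's adjusted p of 0.082 for Acadm (old control 1), 0.072 to 0.090 for Nup88 (old control 1 or young control 2) and 0.055 to 0.16 for C1qbp (old control 2, young control 1 or young control 2).

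On the lower side, the chemokine Ccl9 had 5.82 to 71.2 CPM in LPS libraries and 158 to 236 CPM in control libraries (-2.88 ± 0.63, adjusted p = 0.012). The adhesion receptor Adgre5 (CD97) had 5.82 to 43.8 CPM and 105 to 189 CPM (-2.76 ± 0.55, adjusted p = 0.0076; edgeR gave 0.062 without young control 2). The single-stranded DNA binding protein Nabp1 had 35.0 to 71.2 CPM and 138 to 377 CPM (-2.30 ± 0.42, adjusted p = 0.0040). These 3 did not overlap, whereas Klrd1 (CD94) did, with 35.0 to 109 CPM after LPS and 105 to 323 CPM in controls (-1.83 ± 0.48, adjusted p = 0.030; edgeR gave 0.095 to 0.21 without old control 1 or young control 2). Cst3, the protease inhibitor cystatin C, was the called member of 9 lysosomal genes tested, where 3.31% of all genes were called lower. Cst3 had 29634 and 25024 CPM in old LPS and 18735 and 24668 CPM in young LPS libraries, against 40322 and 54362 CPM in old control and 33687 and 40719 CPM in young control libraries. This is a smaller difference in an abundant transcript, -0.78 ± 0.13 (adjusted p = 0.0019; edgeR gave 0.0504 without young LPS 1).

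The remaining lists gave few calls, where 6.13% of all genes tested were called. Dusp1, a phosphatase of MAP kinases, was the only call among 7 immediate-early and heat shock genes (741 to 1345 CPM in LPS libraries, 189 to 707 CPM in control libraries; 1.42 ± 0.35, adjusted p = 0.028; edgeR gave 0.056 to 0.12 without old LPS 1, young LPS 1, old control 1, young control 1 or young control 2). Aldoa, an enzyme of glycolysis, was the only call among 8 genes of that pathway, lower at -0.94 ± 0.27 (adjusted p = 0.049), and was lost whichever library was left out, with edgeR's adjusted p from 0.063 to 0.19. Neither of 2 uptake receptors nor of 2 cell cycle genes tested was called. Of the 87 called genes, 14 were less than 2 times above the level in AE2 cells in the group where they were higher, 6 of them higher and 8 lower after LPS. The most abundant were the mitochondrial mt-Co3, mt-Cytb, mt-Nd4 and mt-Nd2, lower by log2 values of -0.61 to -0.93, and each call was lost without old LPS 1, without young LPS 1, without young control 1 and in up to 2 further such fits, with edgeR's adjusted p from 0.054 to 0.16. Of 9 tested genes typical of free epithelial RNA, 8 had a positive log2 fold change. The median was 1.20, against 0.06 over all genes tested. The count filter can admit a gene on its LPS libraries alone, so nothing is read from that median. The 1 gene called was Napsa, lower after LPS (-0.92 ± 0.22, adjusted p = 0.018). Its call was lost without old LPS 1, young LPS 1, old control 1, young control 1 or young control 2, with edgeR's adjusted p from 0.055 to 0.11.

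Few differences between old and young mice were detectable in these cells at this depth. Migratory cells were 1.36% ± 1.16 of filtered cells in old and 1.64% ± 1.29 in young libraries (SD, n = 4 each; exact permutation p = 0.743). Of 1419 genes, 1 passed the adjusted p of edgeR (0.0705%), with 59 at an unadjusted p under 0.05. That gene was Il12b, at 52.5 and 124 CPM in old LPS and 276 and 471 CPM in old control libraries, against 379 and 541 CPM in young LPS and 633 and 808 CPM in young control libraries. Within each treatment both old libraries lay below both young ones, and the log2 fold change, old over young, was -1.88 ± 0.34 (adjusted p = 0.044). Without old LPS 1, old LPS 2, young LPS 1, young LPS 2 or old control 1, edgeR's adjusted p was between 0.051 and 0.59. The age by LPS interaction gave 0 calls in edgeR and in DESeq2, with 73 genes at an unadjusted p under 0.05 in edgeR, so a difference in the LPS response between ages was not detectable with 5 to 10 control cells a library.

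Set beside the cDC1 cells of the same libraries, the migratory cells differed in 49.8% of 1576 genes, 24.6% higher and 25.3% lower. The marker genes chose both sets, so nothing is read from these shares and the values are a description. The genes most above cDC1 included Ccl5 at 17415 ± 9361 CPM in migratory and 18.1 ± 27.1 CPM in cDC1 cells (SD, n = 8 libraries each), Cacnb3 at 568 ± 129 and 0.255 ± 0.720 CPM and Anxa3, an annexin, at 867 ± 264 and 9.04 ± 6.72 CPM. Il7r, the interleukin 7 receptor, stood at 335 ± 116 and 5.43 ± 7.99 CPM and Gadd45b, a stress response gene, at 1038 ± 198 and 26.7 ± 29.1 CPM. Each of these 5 was higher in migratory cells in all 8 libraries. Those most below included Tlr3, the endosomal sensor of double-stranded RNA, at 2.46 ± 6.96 and 191 ± 46.4 CPM. Rab7b stood at 0.547 ± 1.55 and 242 ± 48.0 CPM and Havcr2 (TIM-3) at 0.547 ± 1.55 and 160 ± 34.7 CPM. Also among them were Ccr2, the receptor that brings monocytes and dendritic precursors into tissue, at 22.6 ± 54.8 and 637 ± 257 CPM, and Naaa at 48.2 ± 61.0 and 1540 ± 172 CPM. All 12 tested genes of NF-kappaB signalling and survival were higher in migratory cells, Rel at 774 ± 126 and 56.4 ± 41.4 CPM and Birc2 at 512 ± 153 and 40.8 ± 11.4 CPM among them, and all 7 tested cell cycle genes were lower. Against all other cells with low Sftpc, Ccr7, Fscn1, Ramp3, Apol7c, Sema7a, Ccl5, Nudt17 and Il2ra had the highest ratios among genes of at least 50 CPM, from 415 upwards.

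Whether the LPS difference differed between migratory and cDC1 cells was tested as the interaction of cell set and treatment, with library as a block. The selecting genes got no test. Cells that met the migratory rule were left out of the cDC1 set, so the selection can bear on this difference. The cDC1 set held 10 to 13 cells in each LPS library, and the migratory set 5 to 10 in each control library. Of 2299 genes, 14 passed (0.609%), 9 with a higher (0.391%) and 5 with a lower (0.217%) LPS difference in migratory cells. S100a11, a calcium-binding protein, had 2848 ± 92.1 CPM after LPS and 2038 ± 352 CPM in controls in migratory cells, against 673 ± 211 and 1582 ± 170 CPM in cDC1 cells (SD, n = 4 each). The LPS differences ran in opposite directions and differed by 1.90 ± 0.25 on the log2 scale (adjusted p = 5.9e-06). S100a10, the partner of annexin A2, had 946 ± 127 and 713 ± 381 CPM in migratory cells and 245 ± 155 and 860 ± 45.0 CPM in cDC1 cells (2.52 ± 0.39, adjusted p = 0.00016). Anxa2, annexin A2 itself, had 1300 ± 207 and 1256 ± 360 CPM, against 515 ± 102 and 1135 ± 76.5 CPM (1.31 ± 0.28, adjusted p = 0.0090). Mean cDC1 levels of both were lower after LPS, while neither was called for LPS in migratory cells.

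Axl and H2-DMb2 ran the other way. Axl, a receptor for dying cells that also dampens inflammatory signalling, had 24.5 ± 17.8 CPM after LPS and 241 ± 163 CPM in controls in migratory cells, against 148 ± 16.3 and 62.8 ± 26.6 CPM in cDC1 cells (-4.65 ± 0.70, adjusted p = 3.7e-05). By library Axl had 13.1 and 36.3 CPM in old LPS and 5.82 and 42.7 CPM in young LPS migratory cells, against 158 and 377 CPM in old control and 52.7 and 377 CPM in young control ones. H2-DMb2, a beta chain of the class II peptide chaperone, had 31.1 ± 10.7 and 213 ± 124 CPM in migratory cells, against 252 ± 74.5 and 93.2 ± 13.4 CPM in cDC1 cells (-3.93 ± 0.59, adjusted p = 3.7e-05). Of 11 class II genes tested in this way, 10 had a lower LPS difference in migratory cells, with a median of -2.02 against 0.11 over all genes, and 1 was called. Ccl17 had 4603 ± 1708 and 7993 ± 1456 CPM in migratory cells, against 2031 ± 1323 and 1095 ± 144 CPM in cDC1 cells (-1.41 ± 0.27, adjusted p = 0.0090; edgeR gave 0.0503 to 0.056 without old LPS 1 or young control 1). Interferon genes, by contrast, were not called in this test: Irf7 had 222 ± 68.9 and 4.92 ± 9.84 CPM in migratory cells and 203 ± 203 and 7.26 ± 10.6 CPM in cDC1 cells, and the difference of 0.85 ± 1.49 is too loose to show that the sets respond alike.

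Of the other 8 calls, Lyz2 and Apoe need the libraries beside them. Lyz2, the lysozyme of macrophages and AE2 cells, had 726 ± 684 and 622 ± 69.4 CPM in migratory cells and 821 ± 514 and 2343 ± 549 CPM in cDC1 cells, and its call was lost when cells with Sftpc of 1% or more, among them the mixed cell of old LPS library 2, were left out. Of the Lyz2 UMIs of old LPS library 2, 72.5% were in that cell. Apoe had 194 ± 42.2 and 16.6 ± 19.8 CPM in migratory cells and 4.15 ± 8.30 and 134 ± 235 CPM in cDC1 cells, and edgeR's adjusted p was 0.056 without old control library 2. The calls of Slc27a3, St8sia4, Sdf2l1, Slirp, Aif1 and Ccnd2 were each lost in at least 5 of the 8 fits that left out 1 library, all of them without young LPS 1, with edgeR's adjusted p from 0.052 to 0.33. Without young LPS 2, 22 genes were called in all. A further fit had lane, treatment and age terms in place of the library block. It called 8 genes, of which 7 were among the 14: S100a11, S100a10, Anxa2, Slirp, Axl, H2-DMb2 and Ccnd2. That fit drops the pairing of the cell sets within a library, so its lost calls cannot be put down to lane. The calls of St8sia4, Aif1, Slc27a3, Sdf2l1, Lyz2, Ccl17 and Apoe were lost there, with edgeR's adjusted p from 0.0512 to 0.393.

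**Figure D5:**
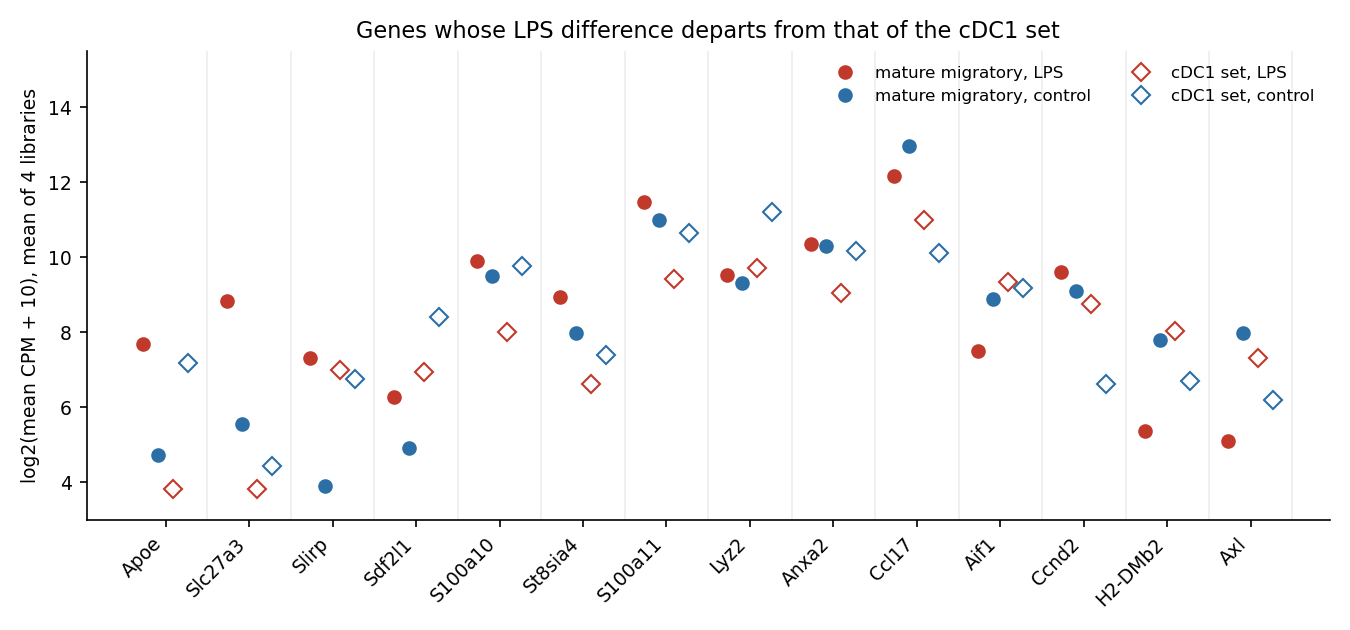
The 14 genes whose LPS difference departed from that in cDC1 cells, as log2(mean CPM + 10) over 4 libraries, with filled circles for migratory cells, open diamonds for cDC1 cells, red for LPS and blue for control. The distance from red to blue runs in opposite directions in the 2 cell sets for every gene shown but Slirp and Ccnd2.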

How the data were processed

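The data are UMI counts per gene and cell in 8 tables, deposited by the authors as counts with 4 hashtag rows, for 31053 genes. Per the submitters' processing notes Cell Ranger 3.1.0, Seurat 3.1 and 3.1.5, R 3.6.3 and the mm10 build were used, and how hashtags were assigned to cells is not given in the sources used here. The migratory cells, the gene lists and the naming rule were chosen with earlier results of these data known. Doublets were not called: cells with under 95% of hashtag UMIs in 1 hashtag, or with Sftpc of 1% or more, were left out as alternatives.

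Counts were summed per library and cell set and tested with edgeR 4.0.16 (limma 3.58.1, R 4.3.3): TMM scaling, filterByExpr, robust quasi-likelihood fits, Benjamini-Hochberg adjustment over all genes tested, threshold 0.05. The filter grouped libraries by treatment for LPS and its interaction with age, and by age class for age. It used cell set for migratory against cDC1 cells, and cell set with treatment for their LPS difference. Both of these main fits took library as a block. Genes that selected cells entered library sizes but no test. DESeq2 1.42.0 was an alternative, and shares were tested by exact permutation (Python 3.11.15, scipy 1.17.1). The fits were tested on simulated data. The animals behind each library are not stated, so p-values cover library-to-library spread alone, which may be technical. The replicate numbers mark the shared lane, per the labels, so libraries of 1 lane are paired by it; same-lane deviations correlated between -0.0456 and 0.0668. Named genes were the 12 largest called changes in each direction at 50 CPM or more, with 1 sign in all 4 pairs and at least 2 times the AE2 level, plus called members of each list, at most 4. Cd80, Cxcl9, Cxcl2, Isg15, Fabp5, Cd274, the class II chain genes and the 1% class II limit were chosen after their values were seen. Clec7a, Ifi30 and Mx2 were not analysed here. Intervals and floors cover counting error only. Of the called genes of the interferon list, 1 is not reported here.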

Additional observations from a re-analysis of the deposited data

Results flagged for a closer look

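In 5 of 98 groups of 4 libraries examined, 1 library lay far from the other 3, where chance gives about 1 in 20. All 5 were control groups, whose summed profiles hold 5 to 10 cells each. Ccl5 was 13841 CPM in old control library 1, against 8204 to 9015 CPM in the other control libraries. H2-M2 was 1265 CPM in young control library 1, against 141 to 323 CPM. Irf7 was 19.7 CPM in old control library 1, a single UMI, against 0 CPM in the other 3. Nr4a3 was 1084 CPM in old control library 2, against 211 to 335 CPM. Zbp1 was 59.1 CPM in old control library 1, 3 UMIs, against 0 CPM in the other 3.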

How the results depend on the processing

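The count of 87 genes called for LPS became 226 with no low count filter, 44 in cells with all 3 selecting genes, 17 without libraries under 10 migratory cells (which leaves old control 1 as the only control), and 22 to 87 when 1 library was left out (22 without young LPS 1, 24 without old LPS 1, 49 without young control 2, 54 without old LPS 2). With lane as a replicate block 98 genes were called for LPS. For the LPS difference from cDC1, 8 were called, against 14, with lane, treatment and age terms in place of the library block. That fit drops the pairing of the cell sets within a library. Other settings of the LPS difference from cDC1 gave 22 with DESeq2, 193 with no filter and 30 with mitochondrial UMIs at most 10%. They gave 26 with free RNA subtracted, 30 without libraries under 10 cells and 10 to 22 with 1 library left out. The 1 gene called for age became 0 with RLE size factors, in cells with all 3 genes, at mitochondrial UMIs of at most 10%, at 95% hashtag purity and without a treatment term, 23 with no filter, 3 without libraries under 10 cells and 0 to 3 with 1 library left out. The interaction's 0 calls became 3 with no filter and 0 to 2 with 1 library left out, and it could not be fitted without libraries under 10 cells. Migratory against cDC1 cells gave 1724 calls with no filter. Size factors moved the split of LPS calls little (39 higher and 51 lower with RLE, 34 and 53 with DESeq2, against 40 and 47). The LPS difference in share was 1.11 points of cells with low Sftpc (exact permutation p = 0.171), kept 1.93 points under the replicate block (paired within lane, p = 0.0556, the smallest possible) and ranged over 1.69 to 2.24 points with 1 library left out (p = 0.0571, the smallest possible). The age difference in share, old minus young, -0.276 points, turned to 2.14 points of dendritic cells, to 0.233 without young LPS 1 and to 0.0693 without old control 2, in a range of -0.799 to 0.233 with 1 library left out. The cause of these changes was not tested.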
